A study of Zea mays with 322 samples.

Results

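Maize W22 diploid plants with 1 B chromosome (1B; plants EB2, EB23, EB37 and EB40) were compared with W22 diploid plants without a B chromosome (0B; plants D1, D2, D3 and D4) for small RNA reads at MIRNA loci. Loci with a mean of at least 0.5 reads per 1000000 mapped reads (RPM) over the 8 plants were taken, which gave 44 of the 64 loci measured. These 8 libraries belong to a series of 322, most of which vary the dosage of chromosome arms or of the whole genome. The comparison serves that series as a control, because several aneuploid lines carry B chromosome material that their own controls lack. Each library came from the leaf of 1 greenhouse-grown plant of 45 days, and the 8 libraries are listed in the same experiment of the study. By the study's methods, their small RNA data came from an earlier study. Apart from the labelled B chromosome, no allele, treatment or age separates the groups. The number of B chromosomes rests on the labels, since the 64 loci all lie on the normal (A) chromosomes, and leaf identity could not be checked from MIRNA loci.

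A B chromosome is a supernumerary chromosome that a maize plant can live with or without. It is largely heterochromatic, is kept in populations by its own drive through the pollen, and is known for few visible effects at low copy number. Plant miRNAs are cut from hairpin transcripts of A chromosome MIRNA genes by a Dicer-like enzyme and guide cleavage or translational repression of target mRNAs. Many conserved families target transcription factors that set leaf polarity, leaf growth, phase change and hormone response.

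The loci on which the results turn are shown first, with the mature miRNA sequence listed for each, read 5′ to 3′, and the seed (bases 2 to 8) in capitals. MIR167c lies at chr5:4442863-4443043 of the W22 genome, MIR167h at chr6:91955005-91955255, and the locus without a miRNA name, Cluster_15779, at chr1:74812358-74812506. None of the 3 is assigned a gene model in the study's annotation, and the hairpin arm of each listed sequence is not given in the sources used here.
MIR167c: aUCAUGCUguggcagccucacu
MIR167h: aGAUCAUGuugcagcuucacu
Cluster_15779: uUGGGAGCcacaaaacugaag
MIR167c is 22 nt and MIR167h 21 nt long. The listed sequences of this pair have different seeds, and the longest stretch they share is 6 bases. This stretch starts at base 1 of MIR167c and at base 3 of MIR167h, so the bases marked as seed are offset against it.

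The 5 MIR166 loci are shown because they take nearly all reads and share their seed. MIR166f (chr5:8409999-8410286), MIR166g (chr1:14797065-14797291) and MIR166i (chr1:247229960-247230120) have the same 21 nt sequence. MIR166k (chr4:187156668-187156772) and MIR166j (chr7:127887241-127887439) share a second one.
MIR166f, MIR166g and MIR166i: uCGGACCAggcuucauucccc
MIR166k and MIR166j: uCGGACCAggcuucaaucccu
Counted from 1 at the 5′ end, the second sequence differs from the first by U16A and C21U. How reads that match several loci were divided among them sets the level of each single locus in such a group.

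Of the 44 loci, 29 carried a miRNA name, in 13 families, and 15 did not. Among them 24 had reads in all 8 plants, 22 exceeded 5 RPM and 19 were under 3 RPM. The median locus had 44.5 reads over the 8 plants. The limit was narrow at its edge. Cluster_82756, just inside it, had 4 reads in the 1B plants and 0 in the 0B plants, whereas Cluster_273394, just outside, had 1 read in each of D1, EB2, EB23 and EB40. Of the 20 loci left out, 8 had no read in these plants, and 5 carried a miRNA name (MIR167a, MIR169o, MIR171f, MIR171i and MIR399b).

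The libraries held 767797 to 1407187 mapped reads and 27426 to 53894 counts on the 64 loci, of which MIR166f and MIR166g took 94.0% to 96.5%. Plants EB37 and EB40 showed no significant difference beyond sampling noise over 22 loci (chi-square per degree of freedom 1.28, p = 0.176) and were counted as 1 sample, so that 3 samples of 1B were compared with 4 of 0B. All other pairs of plants within each group differed significantly beyond it. Pearson's r of log2(RPM + 1) across loci was 0.953 to 0.980 in the 12 pairs of plants of one group and 0.955 to 0.977 in the 16 pairs of a 0B with a 1B plant. By this r, plants of the 2 groups were about as alike across loci as plants of one group. The value of r follows the large differences in level between loci and cannot show a change at single loci. Loci are also not independent replicates.

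One locus passed the test, and it was higher in 1B. MIR167c had 21.2 RPM in D1, 18.8 in D2, 23.1 in D3 and 12.8 in D4. In the 1B plants it had 76.4 RPM in EB2, 36.6 in EB23, 59.8 in EB37 and 82.1 in EB40. All 1B plants lay above all 0B plants, and EB23 was the nearest of them. The miR167 family is known for cleaving mRNAs of auxin response factors, and so acts in the auxin response. Whether the listed MIR167c sequence is the strand that does so is not given in the sources used here. The mean level was 61.3 ± 21.6 RPM (SD, n = 3) in 1B and 18.99 ± 4.49 RPM (SD, n = 4) in 0B. The fitted log2 fold change was 1.39 (SE 0.38, 95% interval 0.65 to 2.14), which is 2.62-fold, with an adjusted p of 0.0131 by edgeR's quasi-likelihood test with Benjamini-Hochberg adjustment. This was 1 of 44 loci tested, and the share called in the comparison was 2.27%. No locus was called lower by edgeR, whereas 2 loci, 1 in each direction, had an unadjusted p under 0.05.

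**Figure D1:**
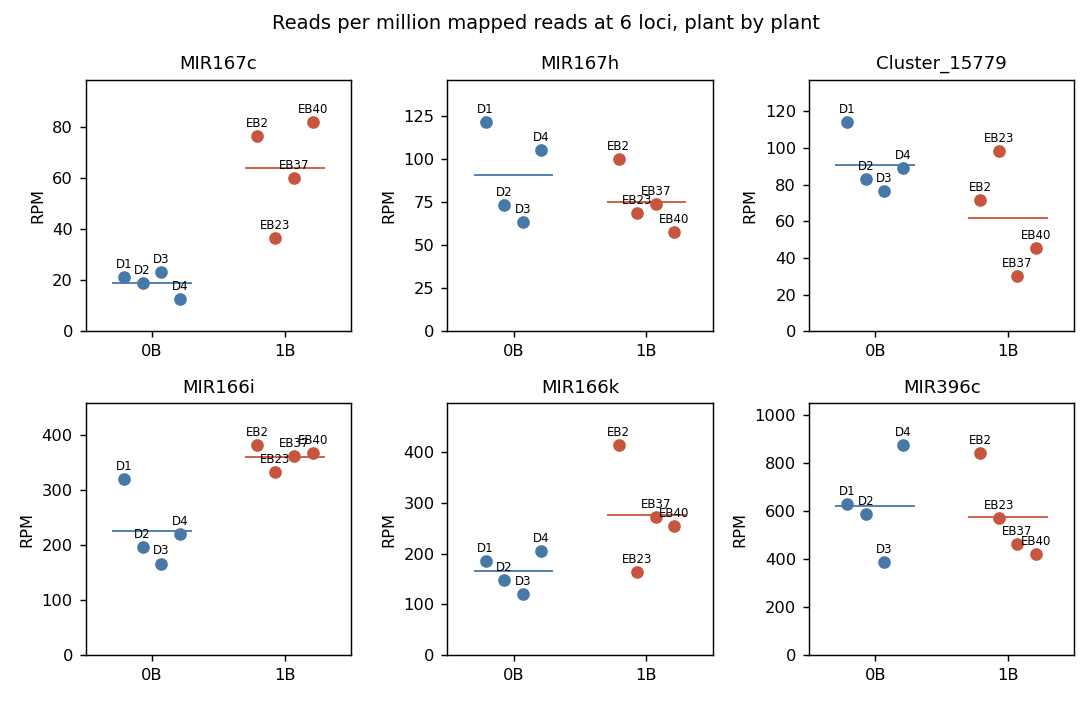
RPM (vertical axis, from 0) of 6 loci in each plant, with 0B in blue and 1B in red, and the mean of the 4 plants as a line. The 1B plants of MIR167c (36.6 to 82.1 RPM) and of MIR166i lie above all 0B plants, while the groups overlap at MIR167h, Cluster_15779, MIR166k and MIR396c.

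The call of MIR167c rested on few reads and on most of the plants. The 0B plants had 26, 20, 23 and 18 reads at the locus, and the 1B plants 81, 41, 65 and 63. Its log2 fold change stayed above 0 in all 20 alternative settings, from 1.08 to 1.69, but passed the threshold in 11 of them. Leaving out 1 sample at a time kept the call in 2 of 7 fits, those without D3 and without EB23. It was lost without D1 (adjusted p = 0.160), D2 (0.0557), D4 (0.133), EB2 (0.0872) or the joined EB37 and EB40 (0.759) by edgeR.

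**Figure D2:**
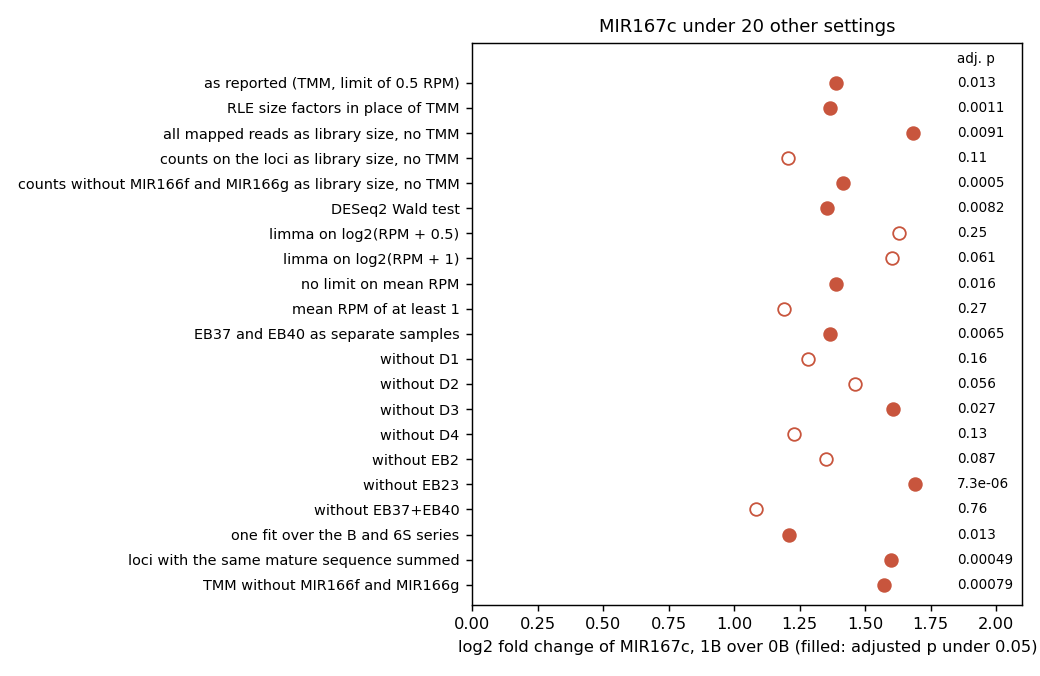
Log2 fold change of MIR167c, 1B over 0B (horizontal axis), as reported and under 20 other settings, with the adjusted p at the right. Filled points have an adjusted p under 0.05. All points lie between 1.08 and 1.69, and 11 of the 20 alternatives are filled.

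A ratio between loci of one library does not depend on how libraries are scaled. The ratio of MIR167c to MIR167h reads was 0.174 in D1, 0.256 in D2, 0.365 in D3 and 0.122 in D4. It was 0.764 in EB2, 0.532 in EB23, 0.812 in EB37 and 1.43 in EB40. The groups did not overlap in this ratio, which was chosen after the values of both loci had been seen and was given no test. Among reads at loci other than MIR166f and MIR166g, MIR167c took 0.667% to 2.14% in the 0B plants and 2.31% to 5.19% in the 1B plants, again without overlap. The plants nearest to each other by this share were D3 and EB23.

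**Figure D3:**
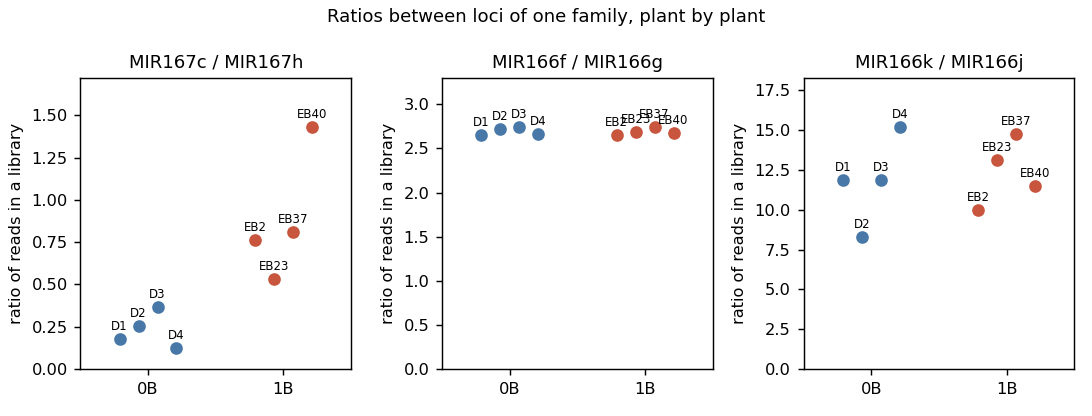
Ratios of reads between loci of one family (vertical axis, from 0) in each plant, with 0B in blue and 1B in red. MIR167c over MIR167h runs from 0.122 to 0.365 in 0B and from 0.532 to 1.43 in 1B. MIR166f over MIR166g, which have the same mature sequence, stays between 2.65 and 2.75 in all 8 plants.

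MIR167h, the other member of the family tested, did not follow MIR167c. It had 122, 73.4, 63.3 and 105 RPM in D1 to D4 and 100.04, 68.8, 73.6 and 57.3 RPM in EB2, EB23, EB37 and EB40, so that the groups overlapped in RPM. After the scaling used for the test (TMM), the samples did not overlap and 1B lay below. The study called both MIR167h and MIR167c in its own comparison of 1B with 0B and left both out of its further work. The fitted log2 fold change was -0.51 (95% interval -1.14 to 0.11, adjusted p = 0.722 by edgeR). MIR167a had 1 read in each of D2, D4 and EB37 and none in the other plants, and was not tested.

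Groups of diploid plants without a B chromosome also differed at MIR167c. The 0B plants were compared by the same test with 6Sa_2D, the 4 diploid control plants of the TB-6Sa translocation series, which are listed in the same experiment and of which 1 pair without a significant difference was joined. There 6 of 43 loci were called, a share of 14%. MIR167c was lower in 0B than in 6Sa_2D (log2 fold change -1.17, SE 0.35, adjusted p = 0.00873 by edgeR). Its level in 6Sa_2D was 57.7 RPM on average and ran from 29.8 to 109 RPM, a range that held all of the 1B plants. Relative to 6Sa_2D, the 0B plants were higher at Cluster_15779 (log2 fold change 2.91), MIR399e (1.79), MIR171g (1.68), MIR319a (1.34) and MIR396c (0.95). By the study's description, neither group has a B chromosome. The labels of 6Sa_2D give the dosage of 6S alone. By the study's methods, the small RNA data of 0B and 1B came from an earlier study. The leaves of the diploid aneuploids and their controls came from a different one. Differences of source and of plants therefore cannot be told apart between 0B and 6Sa_2D.

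Across 17 other diploid control groups of the series, with 66 plants, the mean of MIR167c ran from 15.8 to 140 RPM with a median of 25.9. The 0B mean (18.99 RPM) was below 13 of them, and the mean over the 4 plants of 1B (63.7 RPM) was below 1, the controls of the Dp4 line (140 RPM). The range of single plants in these groups, 4.51 to 177 RPM, enclosed both groups. One of these groups, 3X_2C, holds the diploid controls of the triploids, which came from the inbred line Mo17 and not W22. Without it, the means of MIR167c in the other 16 groups had the same range and a median of 29.5 RPM. Except for 6Sa_2D, these control groups are listed in other experiments of the study, and differences of experiment, background and plants cannot be told apart among them.

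**Figure D4:**
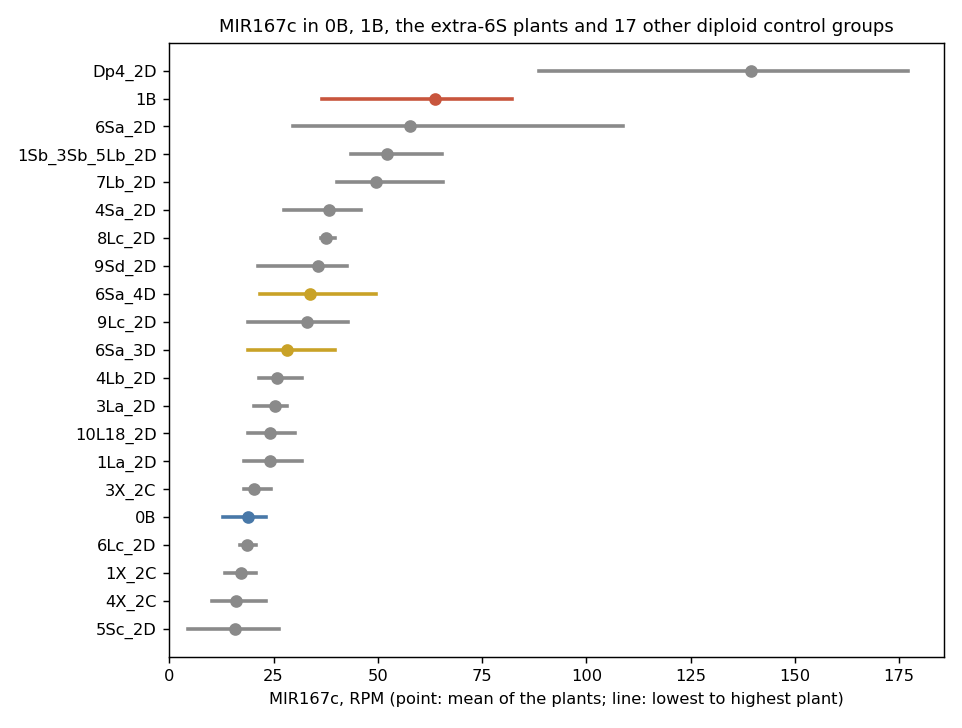
MIR167c in RPM (horizontal axis, from 0) in 0B (blue), 1B (red), plants with 3 and 4 copies of the 6S segment (yellow) and 17 other diploid control groups (grey). Points are means of the plants and lines run from the lowest to the highest plant. The 1B mean of 63.7 RPM is exceeded by 1 control group, Dp4_2D.

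The TB-6Sa plants with extra copies of distal 6S carry B chromosome parts with them, and their own controls share no plant with 0B. In one fit of both sets, MIR167c was the single locus of 42 at which the effects differed, for 3 copies and for 4 copies alike (2.38% in each). Both differences subtract the same effect of 1B over 0B and use the same 6Sa_2D controls, so they are not independent. The effect on MIR167c in 6Sa_3D over 6Sa_2D was -0.9999 on the log2 scale (adjusted p = 0.110 by edgeR), with 28.2 ± 9.53 RPM (SD, 4 plants) in 6Sa_3D. The difference from the effect of 1B over 0B was -2.39 (SE 0.47, adjusted p = 2.1e-05 by edgeR). For 6Sa_4D, at 33.8 ± 11.6 RPM (SD, 4 plants), the effect was -0.70 (adjusted p = 0.479) and the difference -2.08 (SE 0.47, adjusted p = 0.000417), both by edgeR. MIR167c was thus called higher in 1B and was not called in either group that carries B chromosome parts with an extra arm segment. The 6Sa_2D controls had 57.7 RPM of MIR167c on average, near the level of 1B, and the means of 6Sa_3D and 6Sa_4D lay above that of 0B (18.99 RPM). The copy number of 6S differs between these plants as well. The parts of the control level and of the copy number in the difference were not tested.

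MIR166f and MIR166g had the highest levels of the 44 loci. They belong to the family whose miRNA represses HD-ZIP III transcription factors in leaf polarity. MIR166f had 30610, 18978, 19413 and 22005 RPM in D1 to D4 and 32109, 29417, 31850 and 31435 RPM in EB2, EB23, EB37 and EB40. D1 lay among the 1B plants and the other 0B plants lay below them. MIR166i was the second locus whose groups did not overlap in RPM, with 320, 196, 165.8 and 220 RPM in D1 to D4 and 380, 331, 362 and 366 RPM in the 1B plants. Such a separation with 1B above was found at 4.55% of the 44 loci (MIR167c and MIR166i), and with 1B below at none. On the TMM scale of the test, the samples did not overlap at the same 2 loci with 1B above (4.55%) and at 3 loci with 1B below (6.82%), which were MIR167h, Cluster_15779 and Cluster_158979. Cluster_158979 had only 6 reads in the 0B plants and 3 in the 1B plants, and its groups overlapped in RPM. The log2 fold change of MIR166i was 0.40 (95% interval -0.12 to 0.93, adjusted p = 0.722 by edgeR). The mean of MIR166i in 0B, 225 RPM, was below those of all 17 other diploid control groups, which ran from 228 (3X_2C, of the Mo17 series; 261 in the lowest of the others) to 453 RPM, whereas 8 of the 17 exceeded the 1B plants' mean of 359.8 RPM.

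MIR166f and MIR166g kept a nearly fixed proportion, whereas the ratios with other MIR166 loci, which had fewer reads, varied more. The ratio of MIR166f to MIR166g reads was 2.65 to 2.75 in the 0B plants and 2.65 to 2.74 in the 1B plants, although the RPM of MIR166f spanned 18978 to 32109. The ratio of MIR166f to MIR166i, which has the same mature sequence, was 95.6 to 117 in 0B and 84.4 to 88.8 in 1B, without overlap. That of MIR166k to MIR166j was 8.32 to 15.2 in 0B and 9.95 to 14.8 in 1B. Each plant had 10 (D3) to 44 (EB2) reads of MIR166j, and whether the spread of this ratio exceeds counting noise was not tested. These ratios were given no test. MIR166k had 120 to 205 RPM in 0B and 413, 164, 271 and 254 RPM in EB2, EB23, EB37 and EB40. EB2 was the highest plant at MIR166k and at MIR166j (41.5 RPM), and EB23 lay among the 0B plants at both. All 5 loci had a log2 fold change above 0 (median 0.40), and none was called. That of MIR166f turned to -0.01 without the joined EB37 and EB40 and to -0.0042 at a limit of 1 RPM. Over all loci tested, 17 of 44 had a fold change above 0 and the median was -0.11. With loci of the same mature sequence summed, the log2 fold change was 0.68 for MIR166k and MIR166j (adjusted p = 0.238) and 0.39 for MIR166f, MIR166g and MIR166i (adjusted p = 0.254) by edgeR.

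The share of mapped reads that fell on the 64 loci bears on the scale of these values. It was 4.40% in D1, 2.74% in D2, 2.76% in D3 and 3.22% in D4, and 4.66% in EB2, 4.20% in EB23, 4.51% in EB37 and 4.48% in EB40. D1 lay among the 1B plants. The means were 4.45% ± 0.235 (SD, n = 3) in 1B and 3.28% ± 0.78 (SD, n = 4) in 0B, a difference of 1.17 points (two-sided exact permutation test, p = 0.114, where the smallest possible is 0.0571). The share of counts on MIR166f and MIR166g differed by 0.667 points (two-sided exact permutation test, p = 0.286). Per mapped read, 30 of the 44 loci had a fold change above 0 and the median was 0.16, while with counts on the loci as library size and no TMM factor 16 lay above 0 and the median was -0.28. The TMM factor of the joined EB37 and EB40 was 0.761, against 1.04 to 1.06 in the other 6 samples. With 8 separate plants, EB37 had a factor of 0.781 and EB40 one of 1.03, although their counts did not differ significantly. A small fold change of either sign is therefore within what the choice of scale moves.

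**Figure D5:**
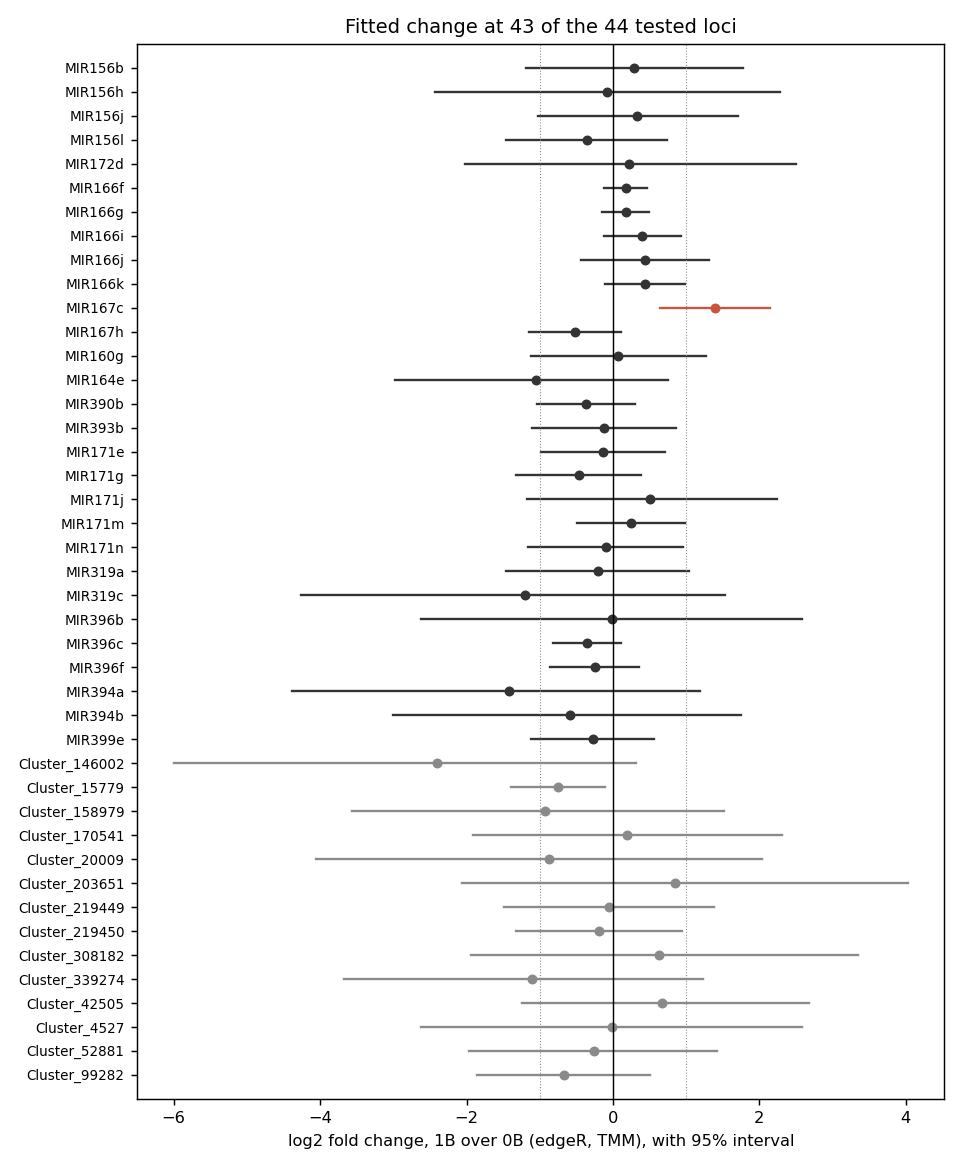
Log2 fold change, 1B over 0B, with its 95% interval (horizontal axis) for 43 of the 44 loci tested, ordered by family, with loci lacking a miRNA name in grey. Cluster_82756 is left out because its 0B plants had no read. MIR167c (red) is the single locus called, and dotted lines mark a 2-fold change.

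Cluster_15779 was the lower locus with an unadjusted p under 0.05. It had 114, 82.8, 76.4 and 88.8 RPM in D1 to D4 and 71.7, 98.3, 30.4 and 45.6 RPM in EB2, EB23, EB37 and EB40. EB23 lay inside the 0B range and the other 1B plants lay below it. The log2 fold change was -0.75 (95% interval -1.39 to -0.12, adjusted p = 0.461 by edgeR). Its log2 fold change stayed below 0 in all 20 alternative settings, but it was called lower in only 2 of them. These were without EB23 (log2 fold change -1.08, adjusted p = 0.00509) and with EB37 and EB40 as separate samples (log2 fold change -0.94, adjusted p = 0.0409), both by edgeR. On the scale of all mapped reads the log2 fold change was -0.41 (adjusted p = 0.985 by edgeR). In the 17 other diploid control groups its mean was lowest in 3X_2C of the Mo17 series, at 1.09 RPM. In the other 16 groups it ran from 16.3 RPM, in 6Sa_2D (SD 1.22, 4 plants), to 172 RPM, which enclosed both 0B and 1B.

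Other loci of the auxin pathway did not pass the test. MIR390b, whose miRNA triggers the TAS3 small RNAs that target auxin response factors, had 41.2 to 78.4 RPM in 0B and 22.3 to 93.4 RPM in 1B. MIR393b, of the family that targets auxin receptor F-box mRNAs, had 6.59 to 13.9 RPM in 0B and 4.47 to 20.8 RPM in 1B. In both, the lowest and the highest plants were EB23 and EB2 of the 1B group. MIR160g, whose family targets a further set of auxin response factors, had a log2 fold change of 0.07 (SE 0.61). MIR164e, of the family that targets NAC genes, had 13 reads in the 0B plants and 6 in the 1B plants, none of them in EB37 or EB40. Of the 6 auxin loci tested, the 1 called was MIR167c, and 4 had a fold change below 0 (median -0.25), beside 1 called (2.27%) and 27 below 0 among all 44 loci (median -0.11).

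The phase-change miRNAs did not pass either. The miR156 family, which represses SPL (SBP-box) factors and keeps shoots juvenile, was represented by MIR156b, MIR156h, MIR156j and MIR156l, whose summed level was 7.82 to 27.8 RPM in 0B and 6.61 to 31.3 RPM in 1B. MIR156b had 8.93 RPM in EB23 and 7.81 in EB40 but none in EB2, so plants of one group differed more than the groups. MIR172d, of the family that represses AP2-like factors and promotes the adult phase, had 5 reads in 0B and 6 in 1B. Of these 5 loci, 3 lay above 0 and 2 below (median 0.22).

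The leaf growth group also overlapped between 0B and 1B. MIR396c, of the family that targets growth-regulating factors, had 629, 586, 386 and 873 RPM in D1 to D4 and 842, 571, 463 and 421 RPM in EB2, EB23, EB37 and EB40. Its log2 fold change was -0.36 (95% interval -0.82 to 0.11) and that of MIR396f was -0.25 (-0.86 to 0.35). On the scale of all mapped reads both lay above 0 (0.00011 and 0.02), as they did with limma on RPM. MIR319a, of the family that targets TCP factors, ran from 2.60 to 13.2 RPM in 1B with EB2 the highest. All 5 loci of this group (MIR319a, MIR319c, MIR396b, MIR396c and MIR396f) had a fold change below 0 (median -0.25), and none was called. On the scale of all mapped reads MIR319a, MIR396b, MIR396c and MIR396f lay above 0.

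The GRAS-targeting miR171 loci, which act in meristem and leaf development, were split. MIR171m had 38.4, 31.1, 23.1 and 26.3 RPM in D1 to D4 and 55.7, 25.9, 53.4 and 37.8 RPM in the 1B plants, with EB23 and EB40 inside the 0B range. MIR171e, MIR171g and MIR171n had fold changes below 0 and MIR171j and MIR171m above 0 (median -0.10), and none was called. MIR399e, of the family that in Arabidopsis lowers a ubiquitin-conjugating enzyme under phosphate shortage, had a mean of 21.8 ± 7.47 RPM (SD, n = 4) in 0B and 22.7 ± 7.44 RPM (SD, n = 3) in 1B. MIR394a and MIR394b, of a family that targets an F-box mRNA, had 6 reads each in 0B, and 2 and 4 reads in 1B.

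Of the 15 loci without a miRNA name, 5 had a fold change above 0 and 10 below, with a median of -0.19. Besides Cluster_15779, those with a mean over 5 RPM were Cluster_99282 (3.76 to 9.95 RPM in 0B and 2.60 to 8.28 in 1B) and Cluster_219450 (3.76 to 9.95 RPM in 0B and 2.68 to 11.3 in 1B). The other 12 were too low to compare plant by plant. Cluster_146002 had 7 reads, found in all of the 0B plants, and 1 read in the 1B plants, in EB2.

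The width of the intervals limits what the comparison could show. The 95% interval of the fold change lay within 2-fold in either direction at 8 of the 44 loci, which were MIR166f, MIR166g, MIR166i, MIR166k, MIR171e, MIR171m, MIR396c and MIR396f. At the other loci that had an interval and were not called, it reached past 2-fold. These included MIR167h (-1.14 to 0.11), with 438 reads in the 0B plants and 307 in the 1B plants. The parts of read depth, spread between plants and number of samples in this width were not tested. Among the 22 loci over 5 RPM, the median SE was 0.40 on the log2 scale.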

How the data were processed

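The authors trimmed reads with cutadapt 1.16, removed low-quality reads and structural RNAs (Bowtie2), and placed reads of MIRNA loci on the W22 genome with ShortStack. They deposited raw counts per locus and, in a second table, RPM (counts per 1000000 mapped reads of the library); counts over RPM were constant within a library (relative spread at most 1.85e-09), which gives the mapped reads. Names, positions and sequences of loci are those of the study's annotation of W22. All per-sample columns matched a label (0 unused). Groups came from the labels.

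For tests, the deposited counts entered edgeR 4.0.16 (R 4.3.3; a quasi-likelihood fit, TMM, library size from the counts, Benjamini-Hochberg adjustment over the loci tested, called under 0.05), after tests on simulated data. Joined plants were summed. Loci were named if called, at an unadjusted p under 0.05, without overlap in RPM, at the RPM limit, or with a miRNA name; others (Cluster_99282, Cluster_219450, Cluster_146002, Cluster_158979) were chosen after their values were seen. Members, lists and tests were chosen with earlier results of these data known. Plants are separate by label. The p-values set the difference between groups against the spread between samples, where joined plants enter as 1 sample. Reads carry no molecular identifiers. Alternatives used DESeq2 1.42.0 and limma 3.58.1. Python 3.11.15 with numpy 2.4.6, pandas 2.3.3, scipy 1.17.1 and matplotlib 3.10.9 did the rest.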

Additional observations from a re-analysis of the deposited data

Results flagged for a closer look

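MIR156b had 5.72 RPM in plant D1 and 1.88 to 2.13 RPM in the other 0B plants, a gap large for a group of 4 by Dixon's criterion. It was the single one of 46 such groups to pass, and chance passes about 1 in 20. The difference rests on 7 reads in D1.

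The effect on MIR167c differed between the TB-6Sa plants and the B chromosome comparison, by -2.39 on the log2 scale for 6Sa_3D and by -2.08 for 6Sa_4D (adjusted p = 2.1e-05 and 0.000417 by edgeR). Both differences share the 0B, 1B and 6Sa_2D plants. The level of MIR167c in the 6Sa_2D controls (57.7 RPM) lay near that of 1B, and the part of this control level in the difference was not tested.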

How the results depend on the processing

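No paired analysis was possible because the labels give plant names and no replicate numbers shared by 0B and 1B. Over 20 alternatives and 31 named loci, 603 of 615 fold changes kept their side of the threshold, 9 (all of MIR167c) lost the call, 3 gained one and 0 reversed a call. The sign turned in 67 of the 615, at 18 loci, none of them called in either direction there. No locus (0) was called higher with counts on the loci as library size and no TMM, with limma at a pseudocount of 0.5 or 1, or at a limit of 1 RPM, where 4, 3, 1 and 3 loci had an unadjusted p under 0.05. With 1 sample left out, 0 to 2 loci were called higher (2 without EB23, MIR167c and MIR166k) and 0 to 1 lower. With EB37 and EB40 as separate samples, 1 locus was called lower. DESeq2 called MIR167c (adjusted p = 0.00821). TMM factors without MIR166f and MIR166g, chosen after seeing the data, gave MIR167c a log2 fold change of 1.57 (adjusted p = 0.000791 by edgeR). Leaving out 1 sample, 0B against 6Sa_2D gave up to 11 calls (11 without D1, 10 without D3), and the differences from 6Sa_3D and 6Sa_4D up to 2 and 3, each with the higher count without EB2 or EB23. The cause of these changes was not tested. Reads were few at many loci: 22 of the 44 had under 40 reads over the 8 plants.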
